A study of Mus musculus with 2 samples.

Results

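The colony-stimulating factors and their receptors were followed through single cells of the atherosclerotic mouse aorta. The set holds 8 of the 32285 genes in the count matrices, namely 4 ligands (Csf1, Il34, Csf2 and Csf3) and 4 receptor chains (Csf1r, Csf2ra, Csf2rb and Csf3r). They were taken by gene symbol, so no measured value chose them, and all 8 had UMIs (unique molecular identifiers, each marking 1 captured RNA molecule) in both libraries.

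These cytokines control how myeloid cells form, survive and are called into tissue. M-CSF (Csf1) and IL-34 (Il34) both bind the receptor tyrosine kinase encoded by Csf1r, which monocytes and macrophages need to survive. GM-CSF (Csf2) binds an alpha chain (Csf2ra) paired with the common beta chain (Csf2rb), and G-CSF (Csf3) binds Csf3r on the neutrophil lineage. Endothelium, fibroblasts and smooth muscle are known sources of several of the ligands when stimulated by inflammatory cytokines.

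Aortic cells were enriched with beads against CD31, an endothelial surface protein, and profiled on the 10X Genomics platform. Both groups were ApoE-deficient mice (ApoE-/-) on a C57BL/6 background fed a Western diet, a model of atherosclerosis. The WT group carried no further named allele. In the EC-iCD45KO group CD45 was in addition deleted from endothelial cells (EC) after induction with tamoxifen. The labels give neither the Cre driver, the CD45 allele, the age nor the number of animals pooled. The series asks how endothelial CD45 bears on the transition of endothelium to mesenchyme. With 1 library per condition, no difference below has a replicate check, and the condition cannot be told apart from the preparation.

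The WT library held 39849 barcodes with a median of 1548 UMIs, and the EC-iCD45KO library 30278 with a median of 1405. After filtering and removal of likely doublets 35553 and 26064 cells were kept, and 340 barcodes occurred in both libraries. Cells were grouped by marker genes outside the set, and a group is called X-like after its markers. EC-like cells numbered 3943 and 4068 (median 1210 and 1187 UMIs), macrophage-like cells 2201 and 5409 (3790 and 3652) and neutrophil-like cells 488 and 1153 (1079 and 1195). B-like cells numbered 5960 and 372, and 8860 and 4897 cells stayed unnamed. Ptprc, which encodes CD45, was read first as the targeted gene. Its EC-like level was 310 CPM (WT) and 98.9 CPM (EC-iCD45KO). It was also lower in SMC-like cells (208 and 82.8 CPM), fibroblast-like cells (359 and 140) and chondrocyte-like cells (186 and 42.7), and in macrophage-like cells (455 and 256). It was higher in neutrophil-like cells, at 964 and 1931, and B-like cells, at 753 and 1235. The position of the counted reads relative to the deleted part is not known. CPM is a gene's UMIs per 1000000 UMIs of the same cells. Values follow in the order WT, then EC-iCD45KO, and ranges are 95% intervals that cover counting error only.

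**Figure D1:**
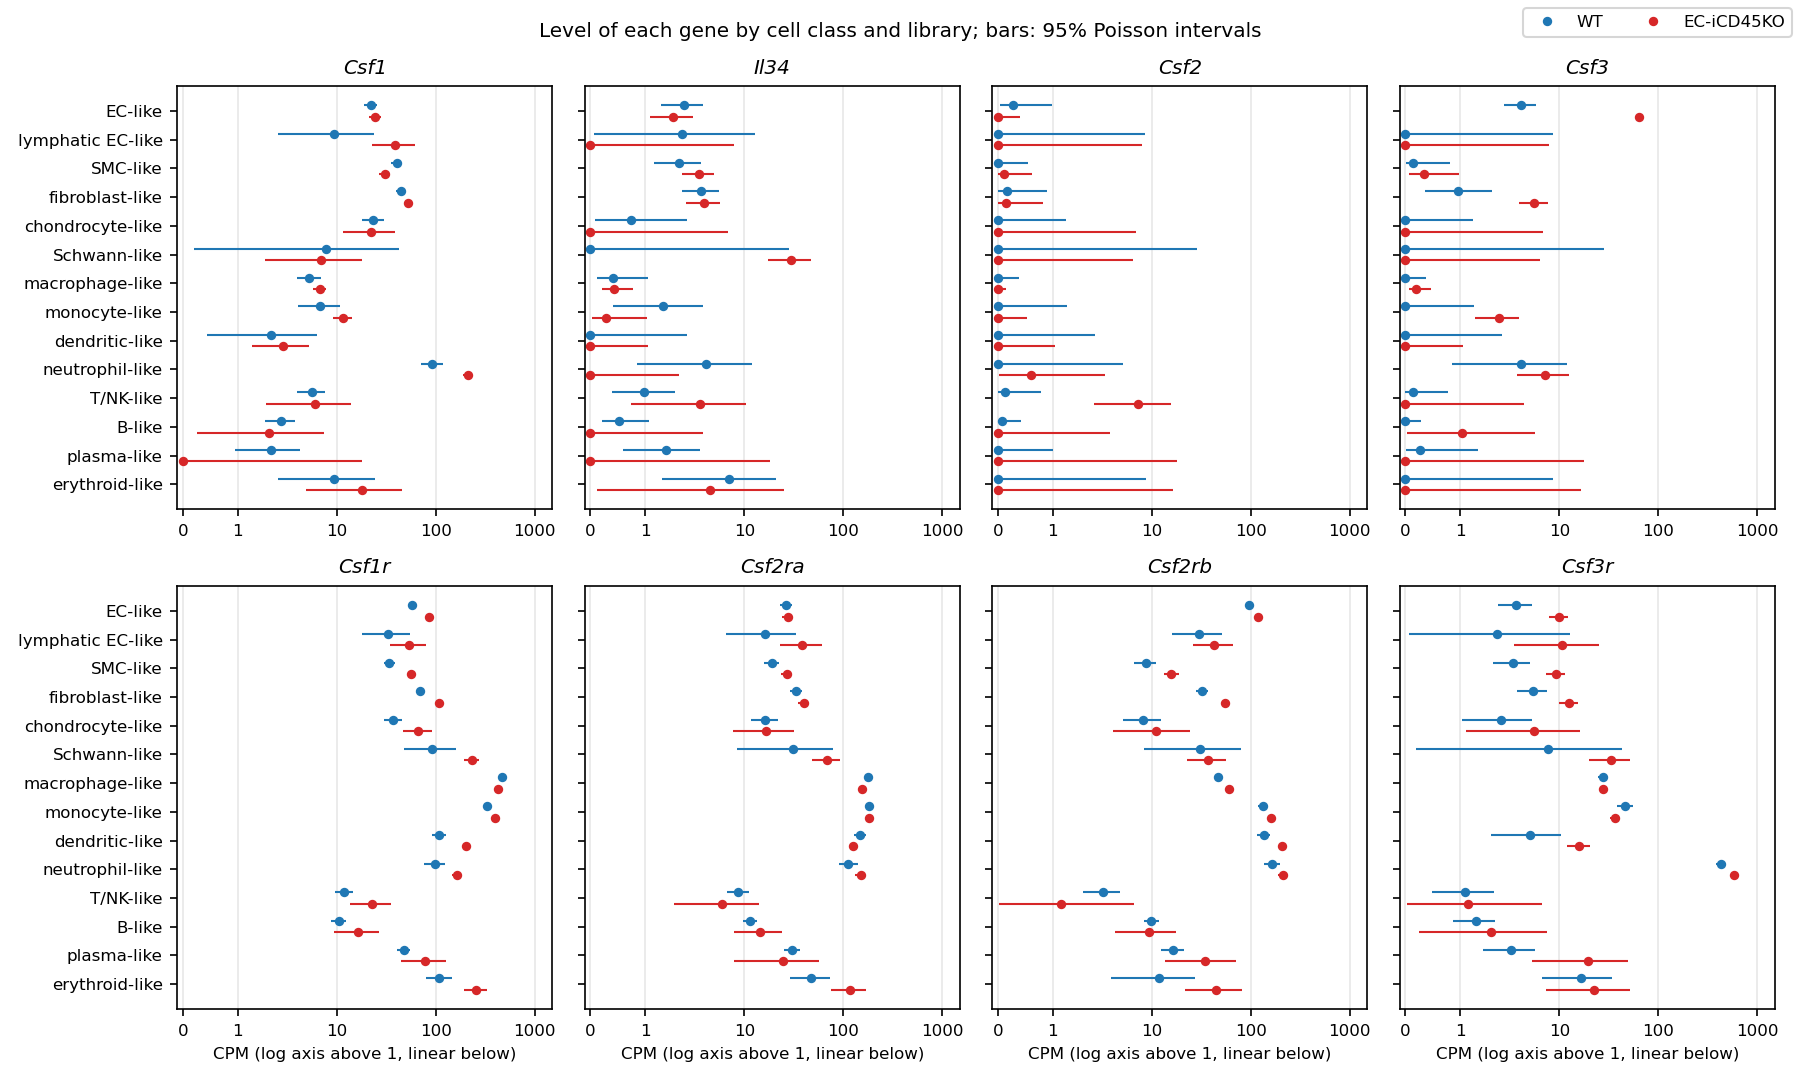
Level of each of the 8 genes (CPM, log axis above 1) in 14 cell classes of the WT (blue) and EC-iCD45KO (red) libraries. Points are class sums and bars are 95% Poisson intervals. Csf3 stands at 63.4 CPM in the EC-like cells of EC-iCD45KO against 4.08 in WT, while Csf3r and Csf1 are highest in neutrophil-like cells and Csf1r in macrophage-like cells.

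Csf3, the ligand of the G-CSF receptor, had the largest ratio of the set among genes and classes with at least 10 UMIs in both libraries. EC-like cells held 30 Csf3 UMIs in WT and 568 in EC-iCD45KO, or 4.08 CPM (2.75 to 5.83) and 63.4 CPM (58.3 to 68.9). The intervals do not overlap, and the level was 15.5-fold higher in EC-iCD45KO (log2 3.96, 3.43 to 4.54). The log2 ratio was 3.24 without doublet removal, 4.66 as a mean of single-cell CPM and 5.01 without the 5 richest cells of each library. Those 5 cells held 70% of the WT and 37.7% of the EC-iCD45KO UMIs, so leaving them out had to raise the ratio. Of 10947 genes averaging 5 CPM or more in EC-like cells, 5 had a higher ratio. At least 2-fold higher were 1.81% of these genes and at least 2-fold lower 4.13%. In B-like cells, a class that should lack the gene, Csf3 had 0 UMIs in WT and 1 in EC-iCD45KO.

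Within EC-like cells the Csf3 UMIs lay almost wholly in the cluster led by Ackr1, the atypical chemokine receptor of venules, and Selp, which encodes P-selectin. This cluster held 27 of the 30 WT UMIs and 565 of the 568 EC-iCD45KO UMIs, at 7.43 and 121 CPM (log2 4.03, 3.47 to 4.65). Over the whole transcriptome 3.53% of genes were at least 2-fold higher there. The cluster led by Gpihbp1, the lipoprotein lipase anchor of capillaries, had 2 UMIs in each library, and the cluster led by Sfrp1 had 1 in each. These counts are too few to compare the libraries.

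Few cells carried the gene. A Csf3 UMI was found in 12 of 2451 WT cells and 100 of 2877 EC-iCD45KO cells of the Ackr1 and Selp cluster. At least 10 UMIs were found in 1 WT cell and 15 EC-iCD45KO cells, and the richest single cell had 11 and 62. The 5 richest cells held 74.1% of the WT UMIs and 37.9% of the EC-iCD45KO UMIs. Over all EC-like cells the share with a UMI was 0.355% and 2.53%. After each cell was thinned to 1000 UMIs, which left out 1446 and 1607 shallower cells, it was 0.160% (0.0437 to 0.410) and 2.03% (1.51 to 2.67).

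Within this cluster Csf3 went with venular adhesion genes in both libraries. Cells with a Selp UMI had 26.2 CPM in the 261 WT cells and 342 CPM in the 472 EC-iCD45KO cells, and cells without one had 1.45 and 5.26 CPM. Cells with a UMI of Sele, the E-selectin gene, were fewer, at 54 and 134, and reached 78.9 and 521 CPM. The ratio between libraries was thus present among Selp-positive cells as well as over the cluster. Cells with a marker UMI were also deeper (median 2165 and 1603.5 UMIs with Selp against 984 and 923 without).

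**Figure D2:**
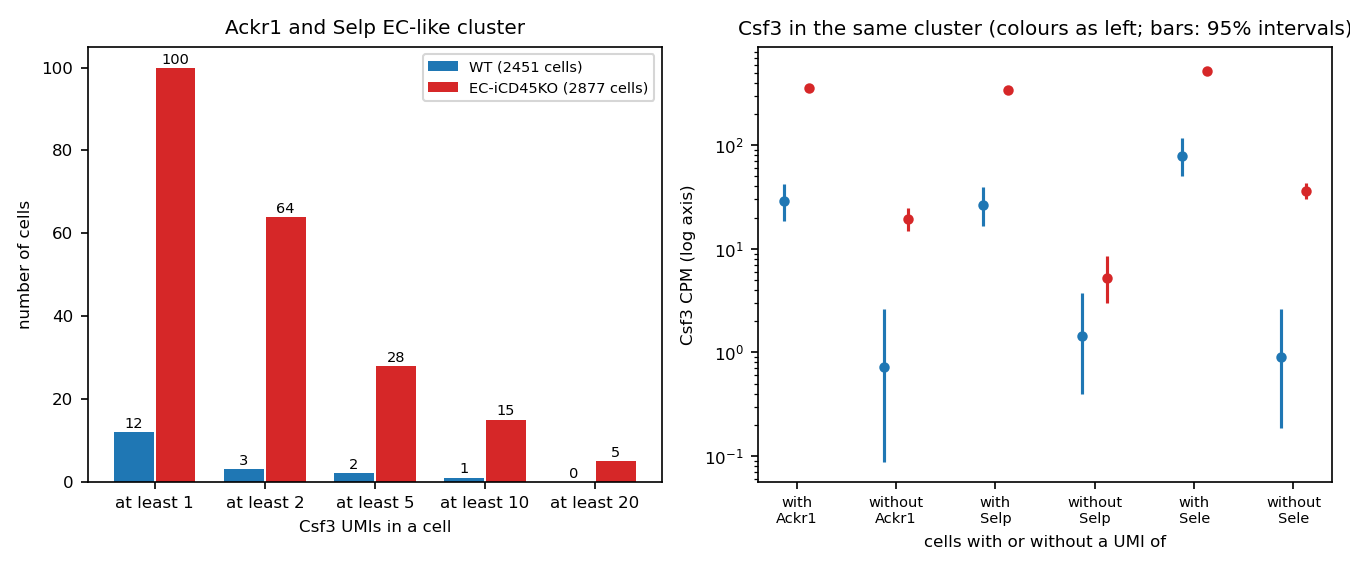
Csf3 in the EC-like cluster led by Ackr1 and Selp, with WT in blue and EC-iCD45KO in red. Left, number of cells holding at least 1, 2, 5, 10 or 20 Csf3 UMIs, from 12 and 100 cells down to 0 and 5. Right, Csf3 level (CPM, log axis, 95% intervals) in cells with or without a UMI of Ackr1, Selp or Sele, highest with Sele at 78.9 and 521 CPM.

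At a finer clustering, 178 WT and 232 EC-iCD45KO cells formed the subcluster with the highest Ackr1 and Selp. Csf3 stood there at 27.2 and 358 CPM. Selp itself was at 545 and 1663 CPM and Ackr1 at 455 and 1259, so these markers were higher in the same library as Csf3. Selp and Ackr1 were among the genes that defined the clusters, and their part in the Csf3 difference was not tested.

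The EC-iCD45KO cells with a Csf3 UMI were set beside those without in the Ackr1 and Selp cluster. Cxcl1, a neutrophil chemokine, was at 850 and 97.1 CPM in the cells with and without Csf3, and Il6 was at 71.4 and 15.0 CPM. Ccl2, a monocyte chemokine, went the other way, at 81.8 and 144 CPM. In WT it was at 19.4 CPM (2.35 to 70.1) and 48.7 CPM, the first from 2 UMIs, too few to compare. Selp was at 2777 and 283 CPM. C1qa, a macrophage transcript, was lower in the cells with Csf3, at 460 CPM, than in those without, at 1461. In WT the 12 cells with Csf3 had 1029 CPM of C1qa and the others 831. The cells with Csf3 were deeper (median 2289 and 983 UMIs in EC-iCD45KO). The whole list of 9 macrophage markers was higher in the EC-iCD45KO library in this cluster, at 3188 and 4939 CPM summed with none at 0. In EC-like cells with no UMI of C1q, Lyz2 or S100a8/a9, 797 and 353 in number, Csf3 had 3 and 8 UMIs, or 1.71 and 9.92 CPM (log2 2.53, 0.47 to 5.08).

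EC-like cells held 30 of the 49 Csf3 UMIs of all WT cells and 568 of the 649 of all EC-iCD45KO cells. Few lay in other cells, but in WT these were a larger part of the total. The fibroblast-like cluster led by Saa3 and Chl1 had 0 UMIs in 145 WT cells and 30 UMIs in 22 of 1083 EC-iCD45KO cells. The share of its cells with a UMI was 0% (0 to 2.51) and 2.03% (1.28 to 3.06), with intervals that overlap. The fibroblast-like cluster led by Timp1 and Vcam1 had 5 and 0 UMIs. All 12 EC markers were higher in the Saa3 and Chl1 cluster in EC-iCD45KO, at 441 and 1156 CPM summed, with Cldn5 and Tie1 at 0 in WT. All 9 macrophage markers were too, at 2686 and 6465. The part of either list in the Csf3 count was not tested. Monocyte-like cells had 0 and 17 UMIs, the latter in 12 of 1380 cells. With 0 UMIs the WT monocyte-like cells allow up to 1.13 CPM (3 UMIs). Neutrophil-like cells had 3 and 12 UMIs, or 4.12 and 7.2 CPM, a log2 ratio of 0.81 (−1.08 to 3.27). In WT this level was close to that of EC-like cells.

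Csf1, which encodes M-CSF, was highest in neutrophil-like cells in both libraries. From 67 and 350 UMIs, its levels there were 92.0 CPM (71.3 to 117) and 210 CPM (189 to 233). The intervals do not overlap (2.28-fold, log2 1.19, 0.81 to 1.59). In this class 5.18% of 9635 tested genes were at least 2-fold higher and 13.6% at least 2-fold lower. The thinned share of cells with a UMI was 5.28% (2.99 to 8.56) and 14.4% (11.9 to 17.2), against 8.61% and 16.0% unthinned.

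The difference between the clusters of the class was not tested. The cluster led by S100a9 and Slc7a11 had 117 and 276 CPM (log2 1.23, 0.78 to 1.71), with 8.3% of genes at least 2-fold higher. The cluster led by S100a9 and Slfn4 had 62.5 and 80.2 CPM (log2 0.36, −0.42 to 1.18), no difference beyond counting error. In the first cluster the 10 neutrophil markers summed to 36574 and 35982 CPM and the 9 macrophage markers to 1334 and 1170 CPM. The 10 SMC markers summed to 194 and 485 CPM there (9 higher and 0 lower in EC-iCD45KO, 4 at 0 in WT and Actg2 at 0 in both). The 10 fibroblast markers summed to 184 and 283 (8 higher, with Pdgfra and Dpt at 0 in WT). The part of these lists in the Csf1 value was not tested. Of 104 thinned EC-iCD45KO neutrophil-like cells with a Csf1 UMI, 49 also had a Csf3r UMI (47.1%), against 41.7% of cells without Csf1. In WT it was 4 of 15 (26.7%), against 31.2%.

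In WT fibroblast-like and smooth muscle (SMC-like) cells came next. Fibroblast-like cells had 44.4 and 52.8 CPM of Csf1 (log2 0.25, 0.02 to 0.48), but their clusters went different ways. The deepest cluster, led by Sfrp4 and Fbln1, had 109 and 79.1 CPM (log2 −0.47, −0.78 to −0.15). The cluster led by Timp1 and Vcam1 had 19.7 and 48.8 CPM (log2 1.31, 0.72 to 1.91), and the cluster led by C7 and Clec3b 30.7 in each. With equal weight to each cluster the class log2 ratio was −0.04, so the sign of the fibroblast-like value depends on how its clusters are weighted.

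In SMC-like cells Csf1 was lower in EC-iCD45KO, at 40.3 CPM (35.7 to 45.3) and 30.3 CPM (26.8 to 34.2) (log2 −0.41, −0.66 to −0.16). The deep cluster led by Acta2 and Lmod1 held most of these UMIs, at 54.3 and 37.0 CPM. Of 10 fibroblast markers in that cluster 9 were lower and 1 higher in EC-iCD45KO, at 14155 and 6670 CPM summed. All 10 SMC markers were higher, at 16618 and 35560. The part of either list in the Csf1 value was not tested. The sign of the class value depended on how SMC-like cells were delimited, with 0.18 under finer clusters and 0.12 when single cells were classed from marker UMIs.

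Csf1 in the endothelium was lower and alike in both libraries, at 22.0 and 24.5 CPM (log2 0.15, −0.15 to 0.45). Its 3 EC-like clusters ranged from 20.6 to 29.2 CPM. Lymphatic EC-like cells had 4 and 18 UMIs, or 9.29 and 38.6 CPM (log2 2.05, 0.45 to 4.07). S100a8 and S100a9, abundant neutrophil genes, summed to 39.5 and 311 CPM in these cells (17 and 145 UMIs), and their part in the Csf1 value was not tested. Macrophage-like cells, which carry the receptor, had 5.27 and 6.69 CPM, and B-like cells 2.71 and 2.06. In WT the order of Csf1 among named classes was neutrophil-like, fibroblast-like, SMC-like, chondrocyte-like and EC-like, and the intervals of fibroblast-like and SMC-like cells overlapped, as did those of chondrocyte-like and EC-like cells. In EC-iCD45KO it was neutrophil-like, fibroblast-like, lymphatic EC-like, SMC-like and EC-like. The intervals of lymphatic EC-like cells overlapped those of both neighbours, and those of SMC-like and EC-like cells overlapped too.

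The Csf1 gene spans chr3:107741048-107760469 on the minus strand (GRCm38). Its RefSeq promoter (250 bases before to 50 after the gene start, build GRCm38.p6) held a match to the NF-kB motif on the opposite strand, beginning 154 bases before the start. It is shown because NF-kB is a known inducer of inflammatory cytokine genes, with the match in capitals, at chr3:107760605-107760632, minus strand.
Csf1: ggccttgagGGAAAGTCCCtaggggcca
Such a match occurred in 8.46% of 32851 promoters of the same length. It is a run of letters and no measured binding.

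Il34, the other ligand of Csf1r, had few UMIs. Among clusters with at least 50 cells in each library its highest level was in an unnamed cluster led by Notch3, Dgkb and Higd1b, genes of contractile mural cells, with 158 WT and 187 EC-iCD45KO cells. It had 122 CPM (92.5 to 159) and 110 CPM (85.9 to 140) there, from 56 and 69 UMIs, and the libraries did not differ beyond counting error (log2 −0.15, −0.68 to 0.39). These UMIs were 56 of 175 in all WT cells and 69 of 189 in all EC-iCD45KO cells. The 6 pericyte markers of this cluster summed to 2409 and 4783 CPM and the 10 SMC markers to 23544 and 29283 CPM, with none at 0 in either list.

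Schwann-like cells had 0 Il34 UMIs in 89 WT cells, which allows up to 23.1 CPM (3 UMIs), and 17 UMIs in 394 EC-iCD45KO cells, or 29.7 CPM (17.3 to 47.5). The WT count cannot show a difference at this depth. Without doublet removal Schwann-like cells had 22.7 and 44.6 CPM, so the WT value of 0 depends on that step. Fibroblast-like cells had 3.68 and 3.94 CPM, SMC-like cells 2.20 and 3.47 and EC-like cells 2.45 and 1.90. When single cells were classed from marker UMIs, SMC-like cells had 14.9 and 10.2 CPM, so this level and its direction depend on how the class is delimited. Of the other binding partners of IL-34, Ptprz1, a receptor phosphatase, was at 55.5 and 101 CPM in SMC-like cells, and Sdc1, the proteoglycan syndecan-1, at 76.2 and 43.7, neither past 2-fold. Il34 (chr8:110741829-110805924) overlaps Gm15894 and Gm15895 on the other strand, and the strand used in counting is not given in the sources used here.

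Csf2, which encodes GM-CSF, was near the limit of detection. All WT cells together had 14 UMIs and all EC-iCD45KO cells 11. An unnamed cluster led by Trdc and Cd163l1, genes of gamma-delta T cells, held 9 and 2 of them. The T/NK-like cluster led by Tnfrsf4 and Ctla4 held 1 and 5. All T/NK-like cells together held 1 and 6 UMIs in 3355 and 313 cells, a log2 ratio of 5.68 (2.64 to 11.21) that rests on 7 molecules. Their levels of 0.140 and 7.19 CPM were 0.859 and 5.88 with finer clusters, and 0.994 and 4.57 when single cells were classed from marker UMIs. EC-like cells had 2 and 0 and macrophage-like cells 0 and 0. In no other class were there enough Csf2 UMIs to compare. Csf2 had no match to any motif searched in its RefSeq promoter. That RefSeq start lies 232 bases before the GENCODE gene start. The searched bases thus end before the GENCODE gene and leave out those directly before its start, so the lack of a match does not cover them.

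Csf1r, the M-CSF and IL-34 receptor, was highest in macrophage-like cells and next in monocyte-like cells. Macrophage-like cells had 464 CPM (451 to 478) and 426 CPM (418 to 434), a small difference (log2 −0.13, −0.18 to −0.07). The direction turned when single cells were classed from marker UMIs, at 313 and 381 CPM (log2 0.28). Among their clusters the one led by Ccl12, Ccl8 and Mrc1 had 594 and 531 CPM and the one led by Zmynd15 and Myo16 had 473 and 472. The cluster led by Gpnmb and Mmp12, genes of lipid-laden macrophages, had 224 and 222. Csf1r thus differed more between macrophage clusters than between libraries.

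Monocyte-like cells had 326 and 392 CPM of Csf1r (log2 0.27, 0.16 to 0.38). The 8 monocyte markers summed to 4242 and 2250 CPM in this class (4 higher and 4 lower) and its median depth was 3072 and 4667 UMIs. Their part in the monocyte-like values of the set was not tested. Dendritic-like cells had 108 CPM (91.5 to 127) and 201 CPM (187 to 217), with intervals that do not overlap (log2 0.90, 0.64 to 1.16). All 9 macrophage markers were also higher in the EC-iCD45KO dendritic-like cells, at 1137 and 3040 CPM summed, and their part was not tested. Neutrophil-like cells had 97.5 and 163 CPM (log2 0.74, 0.36 to 1.14), with all 9 macrophage markers higher as well (3164 and 4563 CPM summed), which was not tested either.

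Csf1r also had UMIs in cells that are not myeloid. EC-like cells had 58.1 and 85.2 CPM (log2 0.55, 0.38 to 0.73), SMC-like cells 34.0 and 56.5 and fibroblast-like cells 69.4 and 108. Among EC-like clusters the Ackr1 and Selp cluster had 72.6 and 132 CPM (log2 0.86, 0.65 to 1.08), the Gpihbp1 cluster 26.5 and 20.0 (log2 −0.41, −0.97 to 0.16) and the Sfrp1 cluster 62.4 and 65.5 (log2 0.07, −0.35 to 0.49). The 9 macrophage markers summed to 3188 and 4939, 663 and 485, and 2169 and 2269 CPM in these clusters. The thinned shares were 6.97% and 10.8% in EC-like and 5.75% and 10.2% in SMC-like cells, against 8.95% and 15.2%, and 8.19% and 14.3%, unthinned. B-like cells had thinned shares of 0.956% and 0.917%.

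Macrophage markers were higher in the same classes and library, and their part in the Csf1r values was not tested. All 9 macrophage markers were higher in EC-iCD45KO in EC-like cells (2279 and 3068 CPM summed), SMC-like cells (1434 and 2230) and fibroblast-like cells (2943 and 4277), with none at 0. Per 100 C1q UMIs (C1qa, C1qb and C1qc summed), EC-like cells had 3.26 and 3.55 Csf1r UMIs, SMC-like cells 3.03 and 3.31 and fibroblast-like cells 3.0 and 3.26. The Ccl12, Ccl8 and Mrc1 macrophage cluster had 3.44 and 3.20. All macrophage-like cells together had 2.51 and 2.50, the Zmynd15 and Myo16 cluster 2.39 and 2.38, and the Gpnmb and Mmp12 cluster 1.23 and 1.49. The EC-like cluster led by Gpihbp1 had 5.20 and 5.43. In EC-like cells with no UMI of C1q, Lyz2 or S100a8/a9, Csf1r had 25 and 8 UMIs, or 14.3 and 9.92 CPM (log2 −0.53, −1.89 to 0.67). That choice of cells also leaves out other RNA that accompanies these genes.

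**Figure D3:**
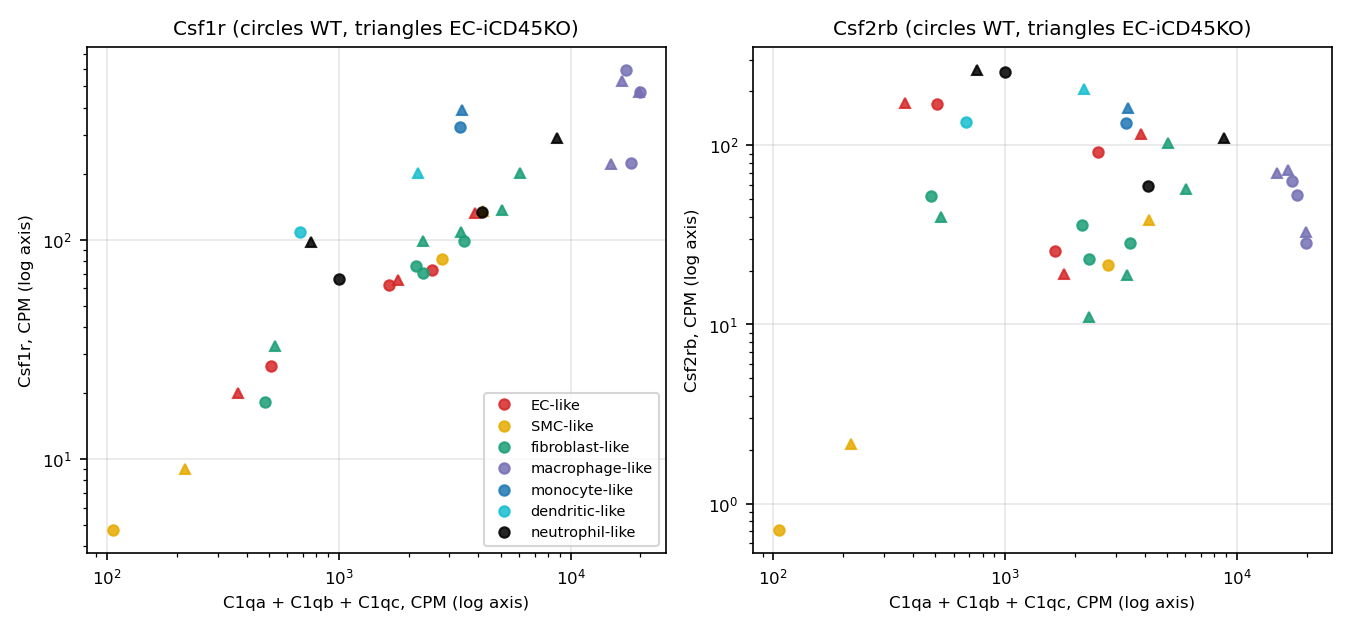
Csf1r (left) and Csf2rb (right) against the summed C1q genes in clusters of 7 classes, all in CPM on log axes, with circles for WT and triangles for EC-iCD45KO. Csf1r lies at 2 to 7 UMIs per 100 C1q UMIs in the EC-like, SMC-like and fibroblast-like clusters, and Csf2rb stands at 170 and 171 CPM in the EC-like cluster with the least C1q.

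Csf2ra, the GM-CSF alpha chain, was highest in monocyte-like and macrophage-like cells. Monocyte-like cells had 182 CPM in each library (log2 0.00, −0.15 to 0.15). Macrophage-like cells had 178 and 156 CPM (log2 −0.20, −0.28 to −0.11), and the Gpnmb and Mmp12 cluster 249 and 174 CPM (log2 −0.52, −0.67 to −0.37). The libraries stood apart in this cluster, with 405 and 1820 cells of median depth 3719 and 1430 UMIs. In the other 2 macrophage clusters the median was higher in EC-iCD45KO (3917.5 and 4736, and 3707 and 5129). The part of depth in the Csf2ra value was not tested. The class ratio was 0.15 when single cells were classed from marker UMIs. The Zmynd15 and Myo16 cluster had 185 in each and the Ccl12, Ccl8 and Mrc1 cluster 129 and 124. Dendritic-like cells had 146 and 126 CPM and neutrophil-like cells 113 and 150. EC-like cells had 26.7 and 27.4 CPM, and only 9.36 and 6.44 in the Gpihbp1 cluster. The gene lies at chr19:61223957-61228429 on the minus strand.

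Csf2rb, the beta chain shared by the receptors for GM-CSF, IL-3 and IL-5, had its highest EC-like level in the cluster with the least C1q. EC-like cells had 96.0 CPM (89.1 to 103) and 119 CPM (112 to 127), a log2 ratio of 0.32 (0.18 to 0.45). The Gpihbp1 cluster had 170 CPM (152 to 189) and 171 CPM (157 to 187), with no difference beyond counting error (log2 0.02, −0.19 to 0.22). Among named classes neutrophil-like cells were first, with 165 and 212, but their intervals overlapped those of dendritic-like cells (135 and 206). Without doublet removal dendritic-like cells came first in EC-iCD45KO, at 203. The Ackr1 and Selp cluster had 91.9 and 116 CPM and the Sfrp1 cluster 25.6 and 19.2. With equal weight to each cluster the class log2 ratio was 0.09, and the difference between clusters was not tested.

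The Gpihbp1 cluster had 510 and 369 CPM of the C1q genes, and 33.2 and 46.5 Csf2rb UMIs per 100 C1q UMIs. The Ccl12, Ccl8 and Mrc1 macrophage cluster had 0.368 and 0.440, and the shallow SMC-like cluster 0.778 and 0.919. In the Gpihbp1 cluster 29.5% and 32.7% of cells had a Csf2rb UMI, or 13.7% and 12.4% after thinning. SMC-like cells, taken as lacking the receptors, had thinned shares of 1.39% and 3.35%, and B-like cells 0.662% and 1.22%. In EC-like cells with no UMI of C1q, Lyz2 or S100a8/a9, Csf2rb was at 87.4 and 143 CPM (log2 0.71, 0.34 to 1.06). Of the chains that pair with Csf2rb, Il3ra, the IL-3 alpha chain, was at 32.8 and 33.2 CPM in the Gpihbp1 cluster, and Csf2ra was low there.

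Dendritic-like cells had 135 and 206 CPM of Csf2rb (log2 0.61, 0.38 to 0.86), monocyte-like cells 133 and 161 and macrophage-like cells 46.4 and 60.8 (log2 0.39, 0.24 to 0.55). The neutrophil-like difference (log2 0.36, 0.06 to 0.67) was not seen in the Slc7a11 cluster, at 255 and 263, while the Slfn4 cluster had 59.5 and 111 CPM (log2 0.89, 0.15 to 1.70). All 9 macrophage markers were higher in the Slfn4 cluster, at 5297 and 11249 CPM summed, and their part was not tested. SMC-like and fibroblast-like cells had lower levels, of 8.64 and 15.8 CPM and of 32.0 and 55.4. All 9 macrophage markers were higher in EC-iCD45KO in both classes (1434 and 2230 CPM summed, and 2943 and 4277), and their part was not tested. In the cells with no UMI of C1q, Lyz2 or S100a8/a9 the ratio turned, to log2 −1.35 (−6.82 to 1.55, from 8 and 1 UMIs) and −0.22 (−1.41 to 0.84). It was also below 0 in SMC-like cells classed cell by cell from marker UMIs (−0.04).

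Csf2rb (chr15:78325752-78353847, plus strand) has a close copy, Csf2rb2, on the same chromosome (chr15:78282507-78305721, minus strand), which encodes a beta chain particular to the IL-3 receptor in mice. Their coding sequences, 2691 and 2637 bases, matched at 2505 of 2631 aligned bases (95.2%), so a short read can fit both and the split of counts between them is uncertain. The following 60-base coding stretches, each within 1 exon, are from the GRCm38 reference and show how alike they are, with the differing bases in capitals. They lie at chr15:78349072-78349131 on the plus strand and chr15:78284317-78284376 on the minus strand.
Csf2rb: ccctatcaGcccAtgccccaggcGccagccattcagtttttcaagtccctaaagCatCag
Csf2rb2: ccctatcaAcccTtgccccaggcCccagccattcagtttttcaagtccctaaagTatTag
Csf2rb2 had 41.1 and 63.2 CPM in EC-like cells and 44.7 and 65.8 in the Gpihbp1 cluster. Across 28 class and library sums it was also the gene whose pattern was most like that of Csf2rb (Pearson r 0.90).

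Csf3r, the G-CSF receptor, was highest in neutrophil-like cells by a wide margin. They had 428 CPM (382 to 479) and 582 CPM (546 to 619), with intervals that do not overlap (log2 0.44, 0.26 to 0.63). The thinned share was 31.0% (25.7 to 36.7) and 42.4% (38.8 to 46.1), against 36.9% and 41.6% unthinned. The Slc7a11 cluster had 661 and 775 CPM (log2 0.23, 0.03 to 0.44) and the Slfn4 cluster 158 and 201. With equal weight to each cluster the class log2 ratio was 0.25. The Slc7a11 and Slfn4 clusters held 230 and 258 cells in WT and 586 and 567 in EC-iCD45KO.

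Monocyte-like cells had 46.0 and 36.7 CPM of Csf3r and macrophage-like cells 27.6 and 27.9. Lower levels were found in EC-like cells (3.67 and 9.82 CPM, log2 1.42, 0.78 to 2.10), SMC-like cells (3.37 and 9.29, log2 1.46) and fibroblast-like cells (5.44 and 12.5, log2 1.21). Of the 10 neutrophil markers, 7 were higher in EC-iCD45KO in EC-like cells and 8 in each of SMC-like and fibroblast-like cells. They summed to 93.7 and 143, 110 and 176, and 111 and 223 CPM, with Ly6g at 0 in EC-like and fibroblast-like cells of both libraries and in WT SMC-like cells. The part of this RNA in the low Csf3r values was not tested.

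The RefSeq promoters of the receptor genes were searched for the core of the PU.1 motif, GAGGAA, on both strands, because PU.1 is a lineage factor of myeloid cells known to act on these genes. Spi1, which encodes PU.1, was at 378 and 442 CPM in neutrophil-like, 494 and 483 in macrophage-like and 76.8 and 90.4 in EC-like cells. A match stood 86 bases before the RefSeq start of Csf3r (chr4:126024562-126024589, plus strand), which lies 109 bases inside the GENCODE gene, so the match itself lies within that gene. A pair of matches began 14 and 8 bases before the RefSeq start of Csf2ra (chr19:61228419-61228446, minus strand), which lies 11 bases inside the GENCODE gene, so the second of them lies within it. The capitals mark the first match.
Csf3r: ctccttcctgaGAGGAAggggctgtcta
Csf2ra: cccaacctgcagatGAGGAAgaggaagc
The core occurred in 28.3% of the 32851 promoters, so a match is common. The other motifs searched on both strands were TGANTCA (AP-1, in 7.81% of promoters), the core of the CK-1 element (in 0.219%) and NF-kB, which Csf3r also matched. Promoters were used for Csf1, Csf2, Csf2ra and Csf3r, and those of Il34, Csf1r, Csf2rb and Csf3 were not analysed here.

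**Figure D4:**
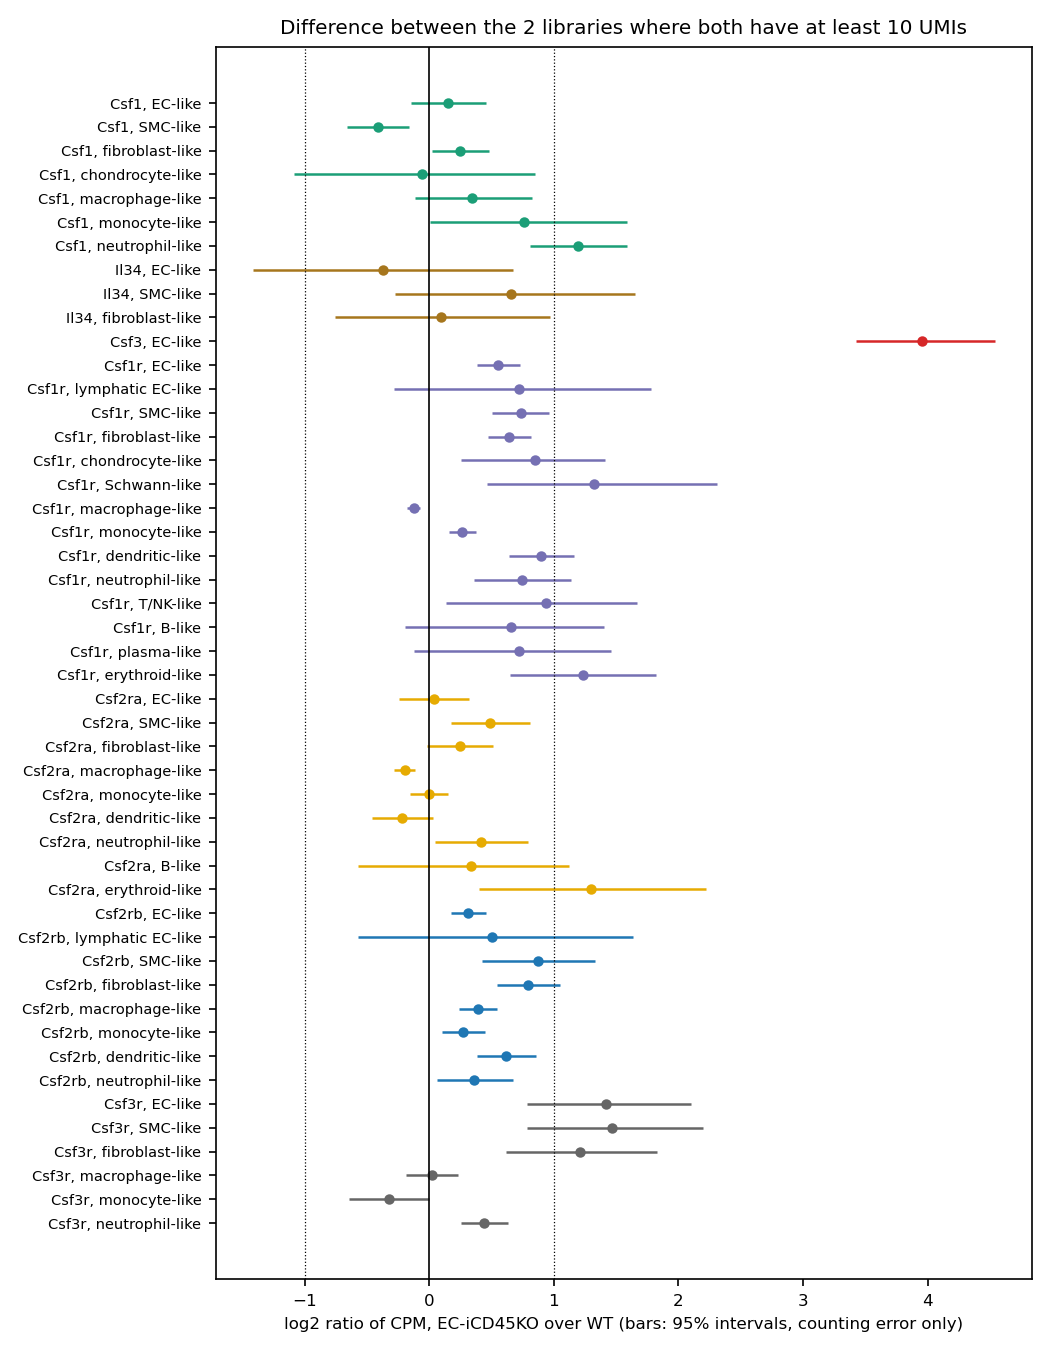
Log2 ratio of CPM, EC-iCD45KO over WT, for each gene and class with at least 10 UMIs in both libraries. Points are ratios, bars 95% intervals for counting error and dotted lines 2-fold. Csf3 in EC-like cells stands apart at 3.96, Csf1r and Csf2ra in macrophage-like cells lie just below 0, and Csf1 in SMC-like cells is at −0.41.

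The set was counted by the same 2-fold rule as all genes, and each count is given beside the share of all tested genes. In EC-like cells 2 of the 6 with a mean of at least 5 CPM were at least 2-fold higher (Csf3 and Csf3r), against 1.81% of all tested genes higher and 4.13% lower. In SMC-like cells it was 1 of 5 (Csf3r), where 2.05% of all tested genes were higher and 4.68% lower. In fibroblast-like cells it was 1 of 5 (Csf3r), with 1.94% higher and 5.17% lower. Dendritic-like cells had 1 of 4 (Csf3r), with 2.99% higher and 4.31% lower, and neutrophil-like cells 1 of 6 (Csf1), with 5.18% higher and 13.6% lower. Csf3r in dendritic-like cells was at 5.05 and 15.8 CPM from 7 and 55 UMIs (log2 1.64, 0.51 to 3.02). The 10 neutrophil markers in that class summed to 23.1 and 146 CPM, with 6 higher and 1 lower in EC-iCD45KO, 6 at 0 in WT, and Ly6g, Ngp and Camp at 0 in both. Their part in the Csf3r value was not tested.

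Macrophage-like cells had none of 5 past 2-fold, where 0.898% of genes were higher and 1.35% lower. Monocyte-like cells had none of 5, where 1.69% were higher and 5.09% lower. In none of these 7 classes was a gene of the set at least 2-fold lower.

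Genes that act with these cytokines were read from 5 lists. Of 12 measured inducers and co-expressed cytokines in EC-like cells, 2 were at least 2-fold higher and none lower, against 1.81% and 4.13% of all tested genes (median log2 0.11, against 0.00 over all genes). These were Ccl2, the monocyte chemokine, at 33.3 and 83.5 CPM, and Cxcl1 at 49.1 and 116. Il6 was at 10.7 and 16.6 and Il1b at 77.0 and 151. In the Gpihbp1 cluster none of 11 was higher and 2 were lower (median log2 −0.28), Il1b at 48.9 and 24.1 CPM and Tnfaip3, an NF-kB inhibitor, at 26.0 and 11.9. There 1.96% of all tested genes were higher and 4.47% lower. The 9 macrophage markers of this cluster summed to 663 and 485 CPM (2 higher and 7 lower). The 8 monocyte markers summed to 100 and 51.9 CPM (3 higher and 5 lower). The part of either list in the lower values was not tested. SMC-like cells had 1 of 12 higher, Ccl2 (28.6 and 72.0), and 1 lower, Il33 (25.9 and 9.74), with a median log2 of −0.20. Of all tested genes in SMC-like cells 2.05% were higher and 4.68% lower. Fibroblast-like cells had 3 of 12 higher, namely Il6 (24.3 and 77.4 CPM), Ccl2 (81.7 and 266) and Cxcl1 (124 and 299), and none lower, against 1.94% and 5.17% of all tested genes (median log2 0.17). Neutrophil-like cells had 2 of 11 higher, Ccl2 and Cxcl1, and none lower, against 5.18% and 13.6% (median log2 0.41). Macrophage-like cells had 1 of 10 higher, Cxcl1 at 123 and 264, and none lower, against 0.898% and 1.35% (median log2 0.08). All 9 macrophage markers were higher in EC-iCD45KO in EC-like, SMC-like, fibroblast-like and neutrophil-like cells, and their part in these calls was not tested.

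The other 4 lists had 1 gene at least 2-fold higher and 4 at least 2-fold lower in EC-like cells. Of all tested genes 1.81% were higher and 4.13% lower. The median log2 ratios of the lists were −0.25 (CSF1R signalling), −0.20 (JAK-STAT), −0.05 (granulocyte factors) and 0.09 (related receptors). Of 15 genes of CSF1R signalling and the macrophage lineage none was higher and 2 were lower, Pik3cd (31.0 and 13.8 CPM) and the transcription factor Irf8 (91.5 and 44.8). Of 14 genes of JAK-STAT signalling 1 was lower, the phosphatase gene Ptpn6 (82.3 and 36.6), and Socs3, a feedback inhibitor induced by G-CSF, was at 92.6 and 135. Of 7 measured granulocyte and GM-CSF-linked factors 1 was lower, Irf4 (37.3 and 2.68), which B cells also express. B-like cells numbered 5960 and 372 and T/NK-like cells 3355 and 313. The part of their RNA in the lower values of these lists, here and in other classes, was not tested. Of 7 related receptors and ligands 1 was higher, Kit (7.48 and 21.3), the stem cell factor receptor, and it reached 7.28 and 29.2 CPM in the Gpihbp1 cluster. Lower in that cluster were 4 of 14 genes of CSF1R signalling, 2 of 7 granulocyte factors and 1 of 14 of JAK-STAT signalling. Of all tested genes 1.96% were higher and 4.47% lower there.

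Macrophage-like cells had no gene past 2-fold in these 4 lists, where 0.898% of all tested genes were higher and 1.35% lower. Irf4 lay just inside 2-fold at 8.27 and 4.13 CPM, and the median log2 ratios of the lists lay between −0.02 and 0.15. In SMC-like cells 4 of 15 genes of CSF1R signalling were lower, where 4.68% of all tested genes were. In neutrophil-like cells 1 of 8 granulocyte and GM-CSF-linked factors was higher and 1 lower, against 5.18% and 13.6% of all tested genes. The higher was Cebpe, a granulocyte transcription factor, at 4.12 and 12.6 CPM from 3 and 21 UMIs (log2 1.61, −0.13 to 4.00). The lower was Irf4, at 41.2 and 2.40 CPM. The 3 lists on receptors and signalling had no higher gene in this class. Lower were 2 of 4 related receptors (Il3ra and the receptor kinase Flt3, median log2 −0.68), 1 of 15 genes of CSF1R signalling (Irf8) and 1 of 14 of JAK-STAT signalling (Stat5a). In fibroblast-like cells, where 1.94% of all tested genes were higher and 5.17% lower, CSF1R signalling had 1 higher (Egr2) and 3 lower of 15 (Inpp5d, Pik3cd and Irf8). Also lower there were 2 of 8 granulocyte factors (Irf4 and Cd274), 1 of 14 genes of JAK-STAT signalling (Ptpn6) and 1 of 7 related receptors (Flt3).

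The genes most like each member over 28 class and library sums, among 6988 genes reaching 50 CPM, are a description of shared libraries and classes. For Csf1r they were Cd68, Ifi207 and Mpeg1 (Pearson r 0.96 each). For Csf3r they included Gm37168 and Clec4e (0.95 each), and for Csf2rb Csf2rb2, Atrnl1 and Skap2 (0.90, 0.88 and 0.88). For Csf1 they were Map1lc3b, Abhd5 and Egr1 (0.88, 0.86 and 0.85), and for Il34 Ppp2r2b, Rasgef1c and Pappa2 (0.83, 0.82 and 0.78). The names depend on the measure: by Spearman's rho those nearest Il34 were Cxcr6, Zfp536 and Vwc2 (0.74, 0.71 and 0.69).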

How the data were processed

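The deposited matrices hold whole-number UMI counts per gene and cell barcode. Reads had been processed with Cell Ranger 7.1.0 on build mm10, per the submitters' processing notes; the treatment of intronic reads and of strand is not given in the sources used here. Barcodes needed 300 or more genes and no more than 10% mitochondrial UMIs to be kept, and the 10% with the highest doublet scores (Scrublet method) were removed from each library. The 8 genes and the pathway lists were left out of the 2000 variable genes, 30 components and 20 neighbours used for Leiden clustering (leidenalg 0.10.2, resolution 1). Clusters were named from 21 marker lists, needing a mean log2 excess of 2 and a lead of 0.5, thresholds set after the data were seen. UMIs were summed per class and library. Poisson, Clopper-Pearson and conditional binomial intervals were used, and with 1 library per group no test was made. Pathway genes were named where their mean was at least 5 CPM and they differed at least 2-fold, with the 3 most alike genes per member, of which 1 is not reported here. Genes named with smaller differences (Il6, Il1b, Socs3, Ptprz1, Sdc1, Csf2rb2, Il3ra, Spi1, Irf4 in macrophage-like cells) were chosen after their values were seen. The 8 genes, lists and rules were chosen with earlier results of these data known. Positions came from GENCODE on GRCm38, where 32158 of 32285 identifiers matched. The alternatives were a stricter cell filter, no doublet removal, finer clusters, classes from single cells' markers, TMM scaling (edgeR 4.0.16), other totals and cell weights, and cells without myeloid UMIs. The interval and ratio calculations were tested on simulated data.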

Additional observations from a re-analysis of the deposited data

Results flagged for a closer look

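Among classes with at least 10 UMIs of the gene in both libraries, Csf1, Csf1r, Csf2ra and Csf3r had log2 ratios of opposite sign in different classes, each with an interval that excluded 0 for counting error. The differences between classes were not tested, since each library is a single sample. When single cells were classed from marker UMIs, the values below 0 turned for Csf1 in SMC-like cells (0.12) and for Csf1r (0.28) and Csf2ra (0.15) in macrophage-like cells, and finer clusters also turned the first (0.18). Values above 0 turned as well: Csf1r in Schwann-like (−0.31) and chondrocyte-like cells (−0.15) under the same classes, Csf1r in EC-like (−0.53) and Schwann-like cells (−0.42) without myeloid UMIs, and Csf1 in fibroblast-like cells with equal cluster weights (−0.04).

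Csf1 was lower in EC-iCD45KO in SMC-like cells (−0.41) and higher in fibroblast-like (0.25), monocyte-like (0.76) and neutrophil-like cells (1.19). Csf1r was lower in macrophage-like cells (−0.13). It was higher in EC-like (0.55), SMC-like (0.73), fibroblast-like (0.64), chondrocyte-like (0.85) and monocyte-like cells (0.27), and in dendritic-like (0.90), neutrophil-like (0.74), T/NK-like (0.94), Schwann-like (1.32) and erythroid-like cells (1.23). Csf2ra was lower in macrophage-like cells (−0.20) and higher in SMC-like (0.49), neutrophil-like (0.41) and erythroid-like cells (1.30). Csf3r was lower in monocyte-like cells (−0.33) and higher in EC-like (1.42), SMC-like (1.46), fibroblast-like (1.21) and neutrophil-like cells (0.44). With fewer UMIs in a library, Csf3r was also higher in dendritic-like (1.64) and plasma-like cells (2.58), and Csf1 in lymphatic EC-like cells (2.05), each with an interval above 0.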

How the results depend on the processing

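No paired analysis was possible because only 1 library was made per condition, and for the same reason no replicate could be left out. Over 66 log2 ratios and 558 alternatives, a change of sign was counted only where the main interval excluded 0. By this rule 12 values changed sign. Of the rest, 498 stayed within the main interval, with either sign where it included 0, and 48 moved outside it. Csf3 in EC-like cells (3.96) was 3.24 without doublet removal, 4.66 as a mean of single-cell CPM, 2.53 in cells without myeloid UMIs and 5.01 without the 5 richest cells of each library, an alternative chosen after seeing the data. Csf2rb in EC-like cells (0.32) was 0.71 without myeloid UMIs and 0.09 with equal cluster weights. Csf1 in SMC-like cells (−0.41) was −0.07 without doublet removal, 0.18 with finer clusters and 0.12 with classes from single cells' markers. Under that last setting Csf1r (0.28) and Csf2ra (0.15) in macrophage-like cells changed sign, Csf1r and Csf2rb in dendritic-like cells were 1.19 and 1.14, and Csf3r in neutrophil-like cells was 0.24. Csf1r in macrophage-like cells was −0.27 as a mean of single-cell CPM. With the stricter cell filter Csf1 and Csf3r in neutrophil-like cells were 1.60 and 0.76. Csf3r there was 0.19 as a mean of single-cell CPM, 0.25 with equal cluster weights and 0.23 in the Slc7a11 cluster alone. Without myeloid UMIs, Csf1r in EC-like (−0.53) and Schwann-like cells (−0.42) and Csf2rb in SMC-like (−1.35) and fibroblast-like cells (−0.22) also changed sign. Csf1 in fibroblast-like cells did so with equal cluster weights (−0.04). With classes from single cells' markers, Csf2rb in SMC-like (−0.04) and Csf1r in chondrocyte-like (−0.15) and Schwann-like cells (−0.31) did too. Turns where the main interval included 0 were not counted. Examples are Csf2ra in EC-like cells (0.04), at −0.58 without myeloid UMIs, and Il34 in SMC-like cells (2.20 and 3.47 CPM). With classes from single cells' markers the latter was at 14.9 and 10.2 CPM. The cause was not tested. Over 7 classes, 6 pairs of a gene and a class were at least 2-fold higher and 15 at least 1.5-fold, and 0 pairs were at least 2-fold lower, or 2 with no minimum level. Thinning to 2000 UMIs moved 73 of 116 shares and no thinning 78. Equal weights and the Slc7a11 cluster alone were added after seeing the data. Depth limits Csf2, Il34 outside 1 cluster and Csf3 outside EC-like cells.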
